A study of Mus musculus with 2 samples.

Results

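The 10 genes described here encode the killing effectors of natural killer (NK) cells and cytotoxic T cells: the granzymes Gzma, Gzmb, Gzmc, Gzmk and Gzmm, perforin (Prf1), the granule proteins Nkg7 and Srgn, the death ligand Fasl and the cytokine Ifng. They were chosen by symbol, through the RefSeq accession of each probe, and all 10 were well above background on both arrays, out of 16774 named genes measured on at least 1 array. The study compared mouse spleen remodelled with silica (SiO2) with spleen given phosphate-buffered saline (PBS) as control. Each group was 1 Agilent one-colour array of RNA pooled from 5 spleens of female mice, collected 19 days after the first injection, and strain and age are not given in the sources used here. Beyond the injected agent no genotype or treatment was named for either group, and the labels give the tissue as spleen, so that each value mixes the cells of the organ.

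Cytotoxic lymphocytes store granzymes, a family of serine proteases, in lysosome-like granules on a core of the proteoglycan serglycin. When a target is recognised the granules fuse with the membrane, perforin forms pores in the target, and granzymes enter and set off its death. Fas ligand kills by a second route, through the death receptor Fas, and interferon gamma is secreted by the same cells and activates macrophages. In spleen these genes are known mainly from NK cells of the red pulp and from effector T cells, whereas serglycin is also made by mast cells, neutrophils, platelets and macrophages.

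With 1 array in each group there was no test and no error between animals. Values are background-subtracted signals, and a difference is log2 signal in SiO2 minus log2 signal in PBS, after division by the signal at the 75th percentile of all spots on that array. The figure after ± is the error estimate of the scanner software for the spots on both arrays combined, which covers the measurement of a spot and not animals, pools, labelling or hybridisation. For bright spots it was nearly a fixed share of the signal, 776 of 7764 for Gzma and 856 of 8564 for Srgn in PBS. It is thus not a scatter measured between repeat spots. A gene was counted as lower or higher at a difference of at least 2-fold.

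Of the 10 genes, 3 were at least 2-fold lower in the SiO2 spleen (Gzma, Gzmb and Fasl) and 0 were at least 2-fold higher. Among all 16774 genes, 3.69% were at least 2-fold lower and 6.62% at least 2-fold higher. At 4-fold the genes that remained were Gzma and Gzmb, 2 of 10 against 0.483% of all genes, with 0 of 10 that much higher against 0.948%. At 1.5-fold, 6 of 10 were lower and 0 higher, beside 12.3% and 16.0% of all genes. The median log2 difference of the 10 was -0.70, beside 0.03 for all genes, and 7 of the 10 were below 0 against 47.7% of all genes. The granzymes did not share 1 level of difference: Gzma and Gzmb were several-fold lower, Gzmc and Gzmm less than 2-fold lower, and Gzmk close to its control signal. The pore former Prf1 and the granule core Srgn were within the spot error of 0 after scaling, and below 0 without it.

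**Figure D1:**
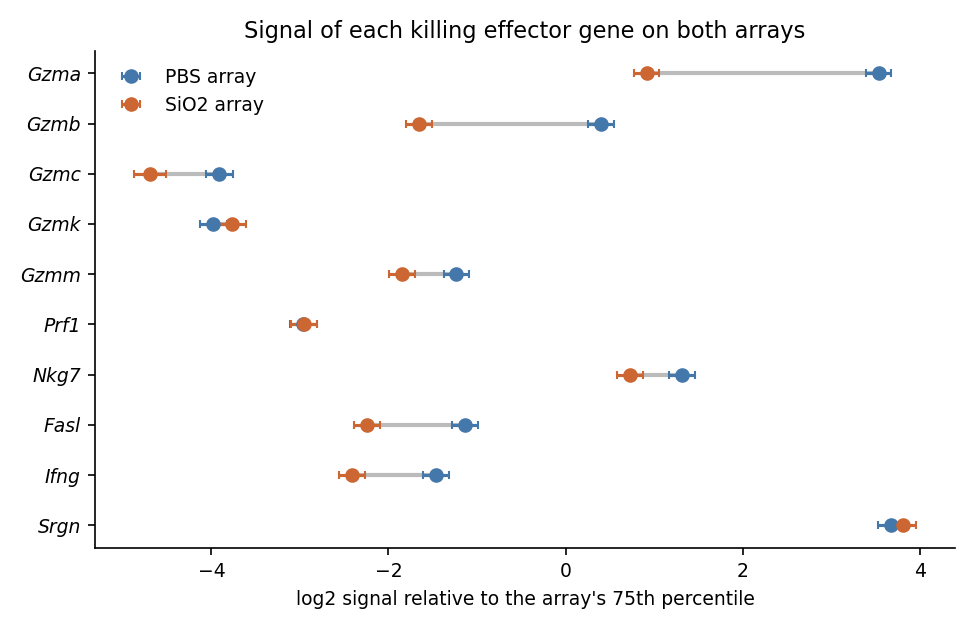
Points give the log2 scaled signal of each killing effector (horizontal axis, 0 being the 75th percentile of the array) on the PBS array (blue) and the SiO2 array (orange), with the scanner software's error estimate as bars; a grey line joins both values of a gene. Gzma goes from 3.54 in PBS to 0.92 in SiO2 and Gzmb from 0.40 to -1.66, while the points of Prf1 nearly coincide at -2.96 and -2.95.

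The promoters of genes at both ends of this range are shown so that a reader can see what they share and where they differ. Each is the 250 bases before the start of transcription in RefSeq (GRCm38.p6), 5′ to 3′ in the direction of the gene. Capitals mark matches, on either strand, to 7 searched motifs. The letters were GGTGTGA for T-box factors, TGTGGT for RUNX factors, TGANTCA for AP-1, TTCNNNGAA for STAT proteins and TGACGTCA for the cyclic AMP response element (CRE). They were GGAAAA for NFAT, and TATAAA for the core promoter box of that name. Gzma and Gzmb had the largest differences, Gzmk and Prf1 differences near 0, and Ifng stands for the secreted cytokine.
Gzma, chr13:113100982-113101231, minus strand: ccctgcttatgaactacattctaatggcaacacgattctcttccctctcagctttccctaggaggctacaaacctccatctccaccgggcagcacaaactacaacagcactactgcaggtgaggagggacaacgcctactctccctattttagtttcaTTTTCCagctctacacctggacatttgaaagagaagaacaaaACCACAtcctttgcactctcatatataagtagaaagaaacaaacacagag
Gzmb, chr14:56262335-56262584, minus strand: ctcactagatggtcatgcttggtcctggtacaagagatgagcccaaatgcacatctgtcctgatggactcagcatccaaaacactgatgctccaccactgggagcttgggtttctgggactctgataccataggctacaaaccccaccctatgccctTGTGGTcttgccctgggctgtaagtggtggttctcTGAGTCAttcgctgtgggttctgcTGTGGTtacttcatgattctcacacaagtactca
Gzmk, chr13:113180966-113181215, minus strand: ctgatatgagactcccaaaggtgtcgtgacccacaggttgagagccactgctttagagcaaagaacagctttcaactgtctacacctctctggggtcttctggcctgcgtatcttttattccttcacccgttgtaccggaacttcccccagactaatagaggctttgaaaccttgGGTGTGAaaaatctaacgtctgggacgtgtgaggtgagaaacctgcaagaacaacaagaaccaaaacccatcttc
Prf1, chr10:61297586-61297835, plus strand: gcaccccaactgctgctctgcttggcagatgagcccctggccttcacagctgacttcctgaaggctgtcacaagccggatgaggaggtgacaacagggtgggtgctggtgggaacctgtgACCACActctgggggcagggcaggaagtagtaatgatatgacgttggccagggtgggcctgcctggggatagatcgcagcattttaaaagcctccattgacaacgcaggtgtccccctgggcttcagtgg
Ifng, chr10:118440796-118441045, plus strand: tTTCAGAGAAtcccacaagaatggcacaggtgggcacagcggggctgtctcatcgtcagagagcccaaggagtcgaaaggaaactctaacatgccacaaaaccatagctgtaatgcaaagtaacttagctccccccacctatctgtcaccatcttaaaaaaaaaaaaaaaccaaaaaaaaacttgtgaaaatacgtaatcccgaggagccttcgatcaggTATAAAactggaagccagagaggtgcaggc

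All 10 genes have an entry in the promoter table, and Gzmm and Srgn have 2 starts each, which gives 12 windows. Runt-related (RUNX) factors, T-box factors and STAT proteins are known regulators of cytotoxic lymphocyte genes. The RUNX letters occurred in 7 of the 12 windows (58.3%), those of Gzma, Gzmb, Gzmc, Prf1, Nkg7, 1 start of Gzmm and 1 start of Srgn, and in 14.1% of all 32851 promoter windows of the same length. They were thus present in Gzma and Gzmb, and also in Prf1. Gzmb held them at 2 places, 93 and 34 bases before the start, with the AP-1 letters 58 bases before the start. The T-box letters occurred in Gzmk, Nkg7 and 1 start of Gzmm, 3 windows against 3.33% of all windows. The STAT letters were in Ifng, Nkg7 and 1 start of Gzmm (7.02% of all windows), the NFAT letters in 4 windows (20.4%), and AP-1 (6.75%) and CRE (1.55%) in 1 each. The letters TATAAA were in 2 windows (12.4%), 30 bases before the start in Ifng and 98 bases before it in 1 start of Srgn. Only exact letters were searched, so near matches and the position of a match were not weighed. No matches overlapped. Gzmb and Gzmc are neighbouring paralogues, so their windows are not independent of each other.

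Gzma, a tryptase-like granzyme stored at high level by resting NK cells, gave a signal of 7764 in PBS and 885 in SiO2. Its log2 difference was -2.62 ± 0.20, a 6.15-fold lower level, and 0.173% of all genes had a lower difference. Gzmb, which cleaves after aspartate and activates caspases in the target, gave 884 in PBS and 149 in SiO2. Its log2 difference was -2.06 ± 0.20, or 4.17-fold lower, with 0.405% of all genes below it. Both genes were lower by far more than the spot error and stayed at least 2-fold lower under all 9 alternative settings, between -2.67 and -2.29 for Gzma and between -2.11 and -1.73 for Gzmb. Some of these settings could not have changed them. Using no filter, asking for both arrays above background or averaging probes left every killing effector except Nkg7 unchanged by construction. The difference of Gzma minus that of Gzmb was -0.56 ± 0.29, under 2 times the combined error.

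Gzmc, a granzyme mainly of activated killer cells, gave a faint signal of 44.5 in PBS and 18.2 in SiO2. Its log2 difference was -0.78 ± 0.24. Under normexp, which models the background of each spot and here also adds an offset of 50 to every signal, it was -0.04. The offset is larger than either signal of this dim probe, and its part and that of the background model in the move were not told apart. Gzmm, which prefers to cleave after methionine, gave 285 in PBS and 130.3 in SiO2, a log2 difference of -0.62 ± 0.20. Gzmk, another tryptase-like granzyme and a marker of memory-like CD8 T cells, was the exception among the 5. Its signal was 42.5 in PBS and 34.5 in SiO2, and after scaling its log2 difference was 0.21 ± 0.22, against -0.30 without scaling.

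A comparison between genes on the same arrays does not depend on the scaling. The log2 difference of Gzma minus that of Gzmk was -2.83 ± 0.30, a 7.12-fold shift between these granzymes, and for Gzmb minus Gzmk it was -2.27 ± 0.30. Gzma and Gzmk lie next to each other among the protein-coding genes of chromosome 13. Of the 10 pairs that the 5 granzymes form, 8 differed by more than 2 times the combined spot error, and of all 45 pairs among the 10 genes, 31 did. The combined error lay between 0.29 and 0.32 for every pair. These counts thus come close to counting at 1 fixed difference and do not measure a spread between spots or animals. Gzma and Gzmb each differed from every one of the other 8 genes by at least 3.28 times the combined error.

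**Figure D2:**
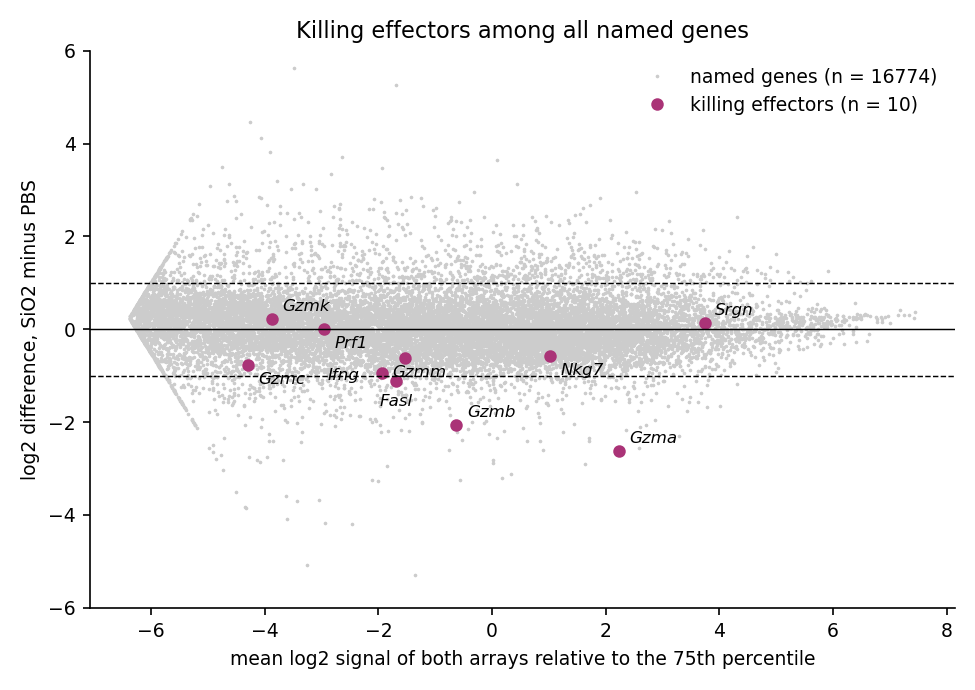
Each grey point is 1 of 16774 named genes and each purple point 1 of the 10 killing effectors, with the mean log2 signal of both arrays on the horizontal axis and the log2 difference, SiO2 minus PBS, on the vertical axis; dashed lines mark 2-fold. Gzma (-2.62) and Gzmb (-2.06) lie at the lower edge of the cloud, Fasl (-1.11) just past the line and Ifng (-0.95) just inside it.

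Prf1, the pore-forming protein without which granzymes do not reach the target cytosol, gave 86.1 in PBS and 60.5 in SiO2. After scaling its log2 difference was 0.01 ± 0.21, and it ranged from -0.08 to 0.34 under the alternatives. It was below 0 in 4 of 9, where the 9 include the settings that could not change it. Without scaling it was -0.51. The difference of Gzma minus that of Prf1 was -2.62 ± 0.29, and of Gzmb minus Prf1 -2.06 ± 0.29, so that both granzymes were lower relative to perforin whatever the scaling. Nkg7, a granule membrane protein needed for efficient release, was measured by 2 probes. The brighter gave 1665 in PBS and 779 in SiO2, a log2 difference of -0.58 ± 0.20. The dimmer gave 428 and 220, a difference of -0.45 ± 0.20, so the probes differed from each other by less than their errors. Srgn, the serglycin core that holds granzymes and perforin in the granule, gave 8564 in PBS and 6584 in SiO2. Its log2 difference was 0.13 ± 0.20 and lay above 0 in the 9 alternatives, which include those that could not change it. Without scaling it was -0.38.

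Fasl, the ligand of the death receptor Fas, gave 304 in PBS and 99.0 in SiO2, a log2 difference of -1.11 ± 0.21 or 2.15-fold lower. Ifng, the type II interferon, gave 243 in PBS and 88.1 in SiO2, a log2 difference of -0.95 ± 0.21 or 1.93-fold lower. These are the members just inside and just outside the 2-fold threshold, and Fasl minus Ifng was -0.16 ± 0.29, within the combined error. Fasl was not 2-fold lower under normexp (-0.62) or with B and T cell markers centred (-0.77). Ifng was 2-fold lower in 3 of 9 alternatives, where the 9 include the settings that could not change it. It was at -0.58 under normexp and -0.62 with B and T cell markers centred.

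**Figure D3:**
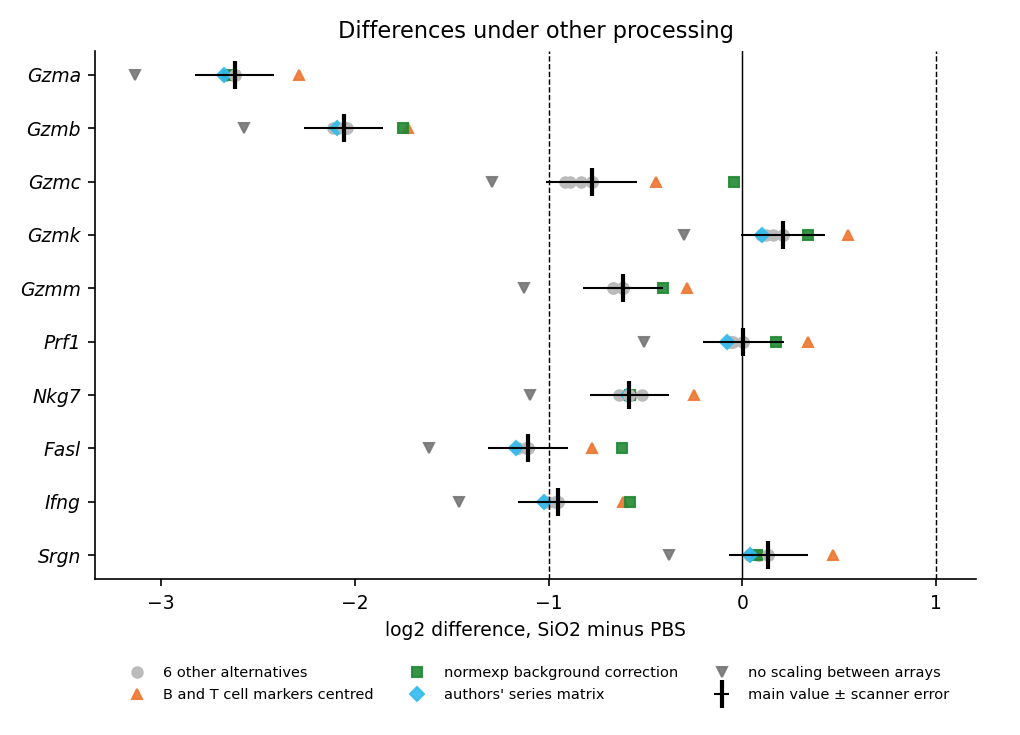
The black mark is the main log2 difference of each killing effector with the scanner error, coloured marks are 4 named alternatives and grey circles the 6 others; dashed lines mark 2-fold. Gzma and Gzmb stay left of -1 under every setting shown, Gzmk and Srgn lie right of 0 except without scaling, and Gzmc moves to -0.04 under normexp.

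Gzmb and Gzmc close a cluster on chromosome 14 that also holds the mast cell chymases, the basophil protease Mcpt8 and cathepsin G (Ctsg) of neutrophil granules. Neighbours in this cluster differed in opposite directions. Mcpt8 gave 50.7 in PBS and 126 in SiO2, a log2 difference of 1.82 ± 0.21. Ctsg gave 1473 and 2197, a difference of 1.09 ± 0.20. The mast cell protease Mcpt4 was near its control level at 0.13 ± 0.22. Between these genes and Gzmc lie Gzme, Gzmd, Gzmg, Gzmn and Gzmf, granzymes of strongly activated killer cells. Of these 5, Gzmg alone was above background, on the SiO2 array, at a signal of 11.4 against 5.11 in PBS, which gives at least 2.20-fold higher against the lowest signal above background. Gzmg was within 2-fold after quantile normalization, after cyclic loess and under normexp. The other 4 were not well above background on either array.

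**Figure D4:**
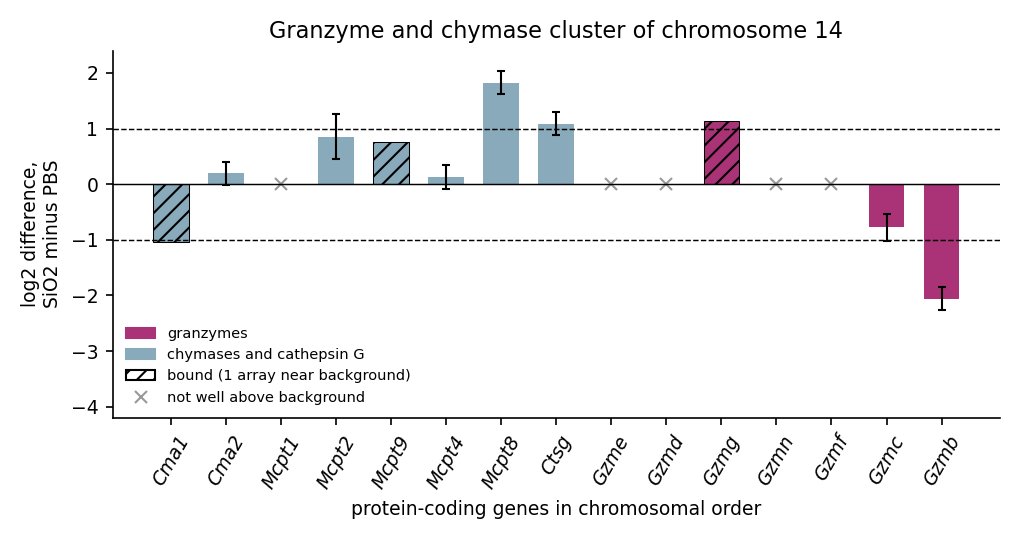
Bars give the log2 difference, SiO2 minus PBS, of protein-coding genes of the chromosome 14 protease cluster in chromosomal order, with the scanner error for those measured on both arrays; purple bars are granzymes, hatched bars are bounds and crosses mark genes not well above background on either array. Mcpt8 (1.82) and Ctsg (1.09) point up, and Gzmc (-0.78) and Gzmb (-2.06) at the end of the cluster point down.

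For granule packing and for granule release, the list medians lay near the median of all genes, while single genes spread to both sides. Proteases and packing genes of the granule numbered 11 with a value, of which 1 was lower by 2-fold or more and 0 higher. Their median was 0.04, the value of Cst7, the inhibitor cystatin F. The member that was lower was Ctsc, the cathepsin that removes the activation peptide from granzymes, with signals of 6933 in PBS and 2284 in SiO2 and a log2 difference of -1.09 ± 0.20. With B and T cell markers centred it was within 2-fold. Ctsw, a cathepsin of cytotoxic lymphocytes, was at -0.80 ± 0.20. Genes of the granule release machinery had 0 of 16 past 2-fold in either direction, with a median of 0.02, and Stxbp2, a syntaxin-binding protein, at 0.02. They ranged from -0.65 to 0.83, with 7 below 0 and 9 above. The part of killer cells in the values of both lists was not tested. Of the serpins that inhibit granzymes, 0 of 5 measured were past 2-fold, all 5 were below 0 and the median was -0.39, with Serpinb6b at -0.39. Serpinb9, the inhibitor of granzyme B, was at -0.79 ± 0.20.

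Transcription factors of cytotoxic lymphocytes were measured for 12 genes, and 2 of these were lower past the 2-fold line. None lay past it in the other direction, the median was -0.50, and Zeb2, nearest to it, was at -0.39. Of the 12, 9 were below 0 and 3 above. Prdm1 (-0.07), Stat4 (-0.02), Ets1 (0.03) and Tox (0.18) were within the spot error of 0, and Hopx was highest at 0.22 ± 0.20. Eomes, the T-box factor of mature NK cells, gave 407 in PBS and 118 in SiO2, a log2 difference of -1.28 ± 0.20. Id2, an inhibitor of E proteins required in innate lymphocytes, was at -1.05 ± 0.20. The other T-box factor, Tbx21 (T-bet), gave 1256 and 461, a difference of -0.93 ± 0.20, and Runx3 752 and 342, a difference of -0.62 ± 0.20. With B and T cell markers centred 0 of the 12 were 2-fold lower.

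Among 13 measured genes that induce interferon gamma, 4 were lower by 2-fold or more and 1 was higher. The median, -0.44, was the value of Il18rap, a chain of the interleukin-18 receptor. The lower ones were the cytokines Il18 (-1.21 ± 0.20), Il12a (-1.05 ± 0.21) and Il15 (-1.01 ± 0.21) and the receptor chain Il2rb (-1.03 ± 0.20), through which interleukin-15 signals. Il21, a cytokine of helper T cells, was higher, with 39.6 in PBS and 96.2 in SiO2 and a log2 difference of 1.79 ± 0.21. The count of lower genes was 0 with B and T cell markers centred and 1 under normexp.

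In the interferon gamma response, 6 of 15 genes were lower by 2-fold or more and 0 higher. The median was that of the chemokine Cxcl9, -0.88. Among the 6 were Socs1, a feedback inhibitor of cytokine signalling, at -2.19 ± 0.20, the transcription factor Irf1 at -1.66 ± 0.20, the chemokine Cxcl10 at -2.16 ± 0.20 and the GTPase Gbp2 at -2.05 ± 0.20. The receptor chains Ifngr1 and Ifngr2 were at -0.26 ± 0.20 and -0.19 ± 0.20. The count of 6 became 5 after quantile normalization, after cyclic loess and with B and T cell markers centred. It was 4 under normexp and 10 without scaling. The genes of this list also respond to other interferons, and the part of interferon gamma in their values was not tested.

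Of 9 other measured products of killer cells, 2 were lower past 2-fold and 0 higher, and the median, that of the cytokine Lta, was -0.49. The death ligand Tnfsf10 (TRAIL) gave 893 in PBS and 209 in SiO2, a log2 difference of -1.58 ± 0.20, and the chemokine Xcl1 gave 200.4 and 55.4, a difference of -1.34 ± 0.21. On the receiving side, genes of the death pathway of target cells had 1 of 13 past 2-fold, the receptor Tnfrsf1a at -1.05 ± 0.20, and a median of 0.04. The receptor Fas was at 0.04 ± 0.20. Tnfrsf1a was within 2-fold when probes of a gene were averaged and with B and T cell markers centred.

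**Figure D5:**
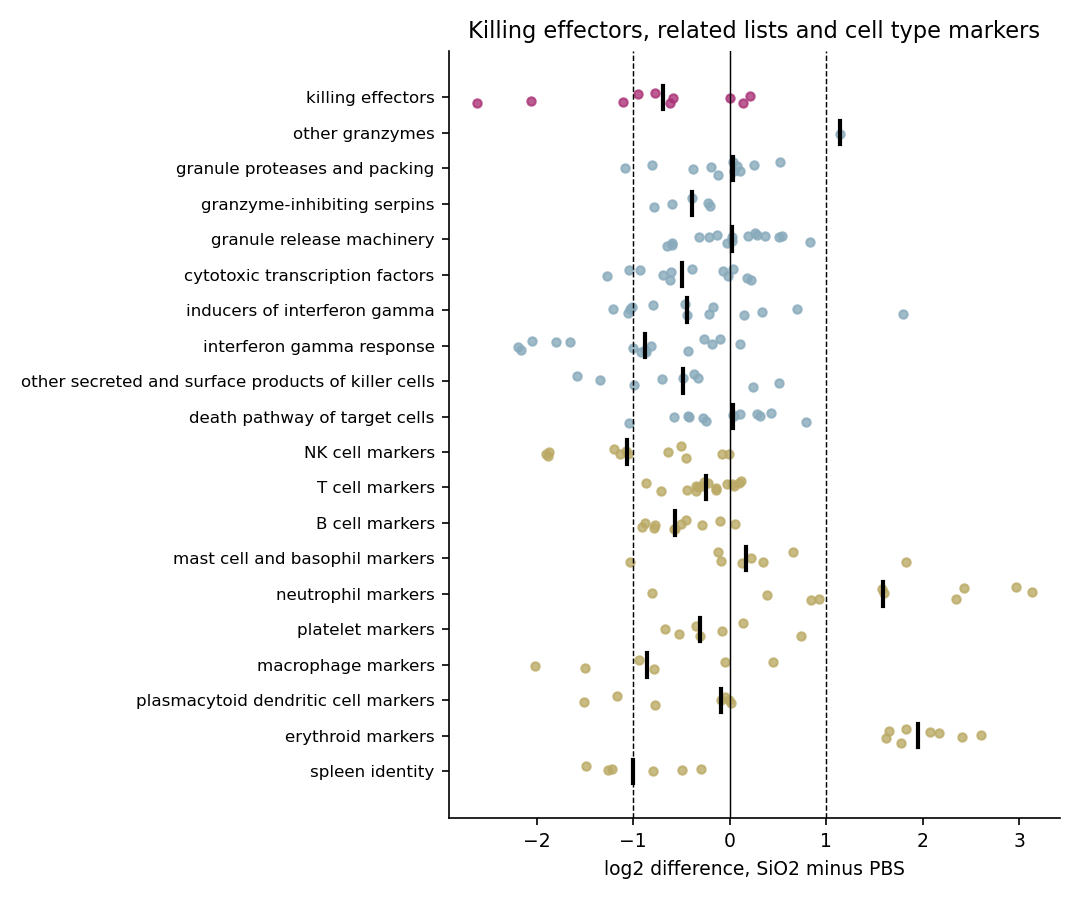
Each point is the log2 difference, SiO2 minus PBS, of 1 measured gene of the killing effectors (purple), of a related list (blue) or of a cell type marker list (yellow), with the list median as a black bar and dashed lines at 2-fold. The medians of killing effectors (-0.70), NK cell markers (-1.07) and interferon gamma response (-0.88) lie left of 0 and that of granule release (0.02) at 0.

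Markers of NK cells were lower beside the killing effectors. All 12 were above background on both arrays and below 0, 7 were at least 2-fold lower, and the median was -1.07. Their summed signal, relative to the 75th percentile, was 15.1 in PBS and 11.7 in SiO2. Cd244a, a receptor also found on other leukocytes, gave 8.92 and 8.84 of these sums with a log2 difference of -0.01. Without it, a setting chosen after seeing the data, the sums were 6.22 and 2.86, or 2.18-fold lower. Ncr1, the receptor NKp46 that defines the lineage, gave 253 in PBS and 48.4 in SiO2, a log2 difference of -1.87 ± 0.21. T cell markers had 0 of 16 past 2-fold, a median of -0.25 and a summed signal of 35.8 in PBS and 30.4 in SiO2, with Cd8a at -0.87 ± 0.20 and Cd8b1 at -0.03 ± 0.20. In whole spleen, fewer cells of a type and less RNA per cell cannot be told apart, and the part of NK cell number in the values of the killing effectors was not tested. Under normexp 2 of 12 NK markers were 2-fold lower, and 3 with B and T cell markers centred.

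Set against the median of the NK markers, the killing effectors lay on both sides, and these values do not depend on scaling. They do depend on other processing. The NK median of -1.07 became -0.67 under normexp and -0.71 in the log2 values deposited by the authors, where 9 of the markers were measured. The values that follow use the median of -1.07. The log2 difference minus that median was -1.55 for Gzma and -0.99 for Gzmb. It was -0.04 for Fasl, 0.12 for Ifng, 0.29 for Gzmc, 0.45 for Gzmm and 0.48 for Nkg7. It was 1.07 for Prf1, 1.20 for Srgn and 1.28 for Gzmk. The NK markers themselves ranged from -1.90 (Klre1) to -0.01 (Cd244a). Gzma was below the lowest of them, Gzmb (-2.06 ± 0.20) was within the spot error of Klre1, Klrb1c (-1.88) and Ncr1, and Fasl and Ifng lay inside the range. Against the median of the T cell markers the values were -2.37 for Gzma, -1.81 for Gzmb, 0.25 for Prf1 and 0.46 for Gzmk. B cell markers had 10 of 11 below 0, 0 past 2-fold, a median of -0.57 and sums of 107 in PBS and 75.4 in SiO2. Against that median Nkg7 was at -0.01, Gzmm at -0.04 and Gzmc at -0.21, each within its spot error of that median. Fasl was at -0.53 and Ifng at -0.38, and Gzma and Gzmb were at -2.05 and -1.49. The part of B cell number in these values was not tested.

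Other cells that hold some of these products differed in both directions. Neutrophil markers, whose cells make serglycin, had 6 of 10 at least 2-fold higher and a median of 1.59, with a summed signal of 88.5 in PBS and 197 in SiO2. Of the 10, 1 was below 0, the receptor Cxcr2 at -0.80 ± 0.21. Platelet markers had 0 of 7 past 2-fold and a median of -0.31, with sums of 33.6 and 27.4. Macrophage markers had 2 of 6 measured at least 2-fold lower and a median of -0.86, with sums of 53.2 and 26.9. Mast cell and basophil markers, which mark further sources of serglycin and granzyme B, had 1 of 8 measured lower and 1 higher, with a median of 0.17 and sums of 1.91 and 2.15. Plasmacytoid dendritic cell markers had 2 of 7 lower and a median of -0.09, with sums of 95.5 and 75.6. The part of these cells in the value of Srgn was not tested.

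For the arrays as a whole, 75.5% (PBS) and 74.9% (SiO2) of spots were well above background, and 0 were saturated. All 6 genes of the spleen identity list were above background on both arrays and below 0, with a median of -1.01, lower than that of the killing effectors. Of these, 3 were lower by 2-fold or more, the macrophage factor Spic (-1.49), the chemokine Cxcl13 (-1.26) and the macrophage protein Cd5l (-1.22), while the homeobox genes Nkx2-3 and Tlx1 were at -0.50 and -0.29. Their part in the values of the killing effectors was not tested. The signal at the 75th percentile was 670 in PBS and 469 in SiO2, so that scaling added 0.51 to every log2 difference. The reference genes Gapdh, Hprt and Actb were then at 0.28, 0.14 and -0.25. Erythroid markers had 8 of 8 at least 2-fold higher and a sum of 44.8 in PBS and 158 in SiO2. Of genes past 2-fold, 35.8% were lower, and 11.5% when B and T cell markers were centred.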

How the data were processed

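RNA of 2 pools of spleen was hybridised to Agilent one-colour arrays. Per the labels' protocols, the extraction kit was one for blood with differential lysis of red cells, globin transcripts were removed, and the label was Cy3. The scanner files deposited by the authors hold linear spot intensity, background-subtracted by Agilent Feature Extraction 11.0.1.1 per the file headers; version 9.1 is the one in the submitters' processing notes. For 26049 probes the authors also deposited log2 values in a series matrix; against the scanner values it had slopes of 0.994 (PBS) and 1.01 (SiO2) and column medians of 5.68 in both, so that scale and direction follow from this comparison and the method of centring stays unknown. It holds values for 8 of the 10 genes; Gzmc and Gzmm are not analysed in it.

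Control spots and outlier spots were left out, repeat spots were averaged, and log2 intensity was taken relative to the 75th percentile of the array. Probes were named by unversioned accession through RefSeq (GRCm38.p6, names, gene order and promoters only): 27217 of 39398 probes matched 1 symbol. The brightest probe well above background (by the scanner flag of the majority of its spots) on at least 1 array stood for a gene. A dim value was raised to the lowest above-background signal of its array and the fold called a bound. Each probe of the 10 genes is 1 spot per array, and Nkg7 has 2 probes. Among 300 probes with repeat spots, the log2 difference varied between spots with a median SD of 0.061.

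The 10 genes and all lists were chosen with earlier results of these data known. Named were all 10 genes, up to 5 genes per list and direction past 2-fold, the gene nearest each list median, and reference genes; 1 gene that this rule names is not reported here. Ctsw, Serpinb9, Tbx21, Runx3, Ifngr1, Ifngr2, Cd8a, Cd8b1, Nkx2-3, Tlx1, Ncr1, Cd244a, Gzmg and the chromosome 14 neighbours were named after their values were seen. The same holds for Prdm1, Stat4, Ets1, Tox, Hopx and Cxcr2. The motifs were chosen after the data were seen. Alternatives were the array median, quantile normalization, cyclic loess, centring on B and T cell markers, normexp with offset 50 (limma 3.58.1), the series matrix, the mean over probes, no filter, both arrays above background, and folds of 1.5 and 4; no scaling was added after seeing the data. The code for scaling and gene values was tested on simulated arrays with known differences, which checks its arithmetic only and not the 2-fold counts of these arrays.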

Additional observations from a re-analysis of the deposited data

How the results depend on the processing

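Over the alternatives chosen at the start, 73 log2 differences of the 10 genes moved by less than the scanner error and 15 by more, the latter under centring on B and T cell markers or under normexp. The 73 include values that could not move. All 10 genes were above background on both arrays and only Nkg7 had more than 1 probe. No filter, both arrays above background and the mean over probes thus left the other genes unchanged. Gzma and Gzmb were at least 2-fold lower in all 9. The median of the 10 genes was -0.36 with B and T cell markers centred and -1.21 without scaling. The number at least 2-fold lower was 2 with B and T cell markers centred and under normexp, beside 1.69% and 1.70% of all genes. It was 4 with the array median and after quantile normalization, beside 4.19% and 4.39% of all genes. In the authors' series matrix it was 4 of 8, beside 4.71%. Without scaling it was 7, beside 17.0% of all genes, and counted at 1.5-fold it was 6, beside 12.3%. Over all genes, 619 lower and 1110 higher became 284 and 2180 with B and T cell markers centred, 285 and 616 under normexp, 571 and 699 of 12132 in the authors' series matrix, and 2856 and 480 without scaling, where 85.6% of those past 2-fold were lower. The setting without scaling was chosen after seeing the data. Depth limits Gzmc most: its SiO2 signal was 2.96 times the lowest signal above background. Gzmk and Prf1, with differences near 0, were the next dimmest at 5.61 and 9.86 times, beside 144 times for Gzma. No paired analysis was possible because each group is 1 array.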
